A study of Homo sapiens with 6 samples.

Results

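Eph receptors and their ephrin ligands were followed through 10 genes: the receptors EPHA2, EPHA4, EPHB2, EPHB3 and EPHB4, and the ligands EFNA1, EFNA4, EFNA5, EFNB1 and EFNB2. They were taken by name from the 58336 gene identifiers of each count file and stand among 22 family genes, 14 receptors and 8 ephrins, named in the GENCODE 29 annotation. RNA was sequenced from 12Z cells, an established human endometriotic epithelial line, 72 h after transfection with 50 nM of an siRNA against SMARCA4 (siBRG1, n = 3 libraries) or of a non-targeting siRNA (control, n = 3). BRG1, the protein made from SMARCA4, drives the SWI/SNF complexes that move nucleosomes. All cells were grown in 10% serum and moved to 0.5% serum at 48 h, and none of the labels names another allele or agent. By the labels, the 3 control libraries were taken over from data deposited earlier while the 3 siBRG1 libraries were not, so for every result here a batch and the siRNA cannot be told apart.

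Ephs are receptor tyrosine kinases that bind ephrins on the surface of neighbouring cells, so that signals pass where cells touch. Ephrin-A proteins are held in the membrane by a lipid anchor and ephrin-B proteins by a transmembrane segment whose tail binds PDZ domain proteins. A-class receptors mostly bind ephrin-A and B-class receptors ephrin-B, with EPHA4 known to bind both, and the signal can run into the receptor cell (forward) or the ligand cell (reverse). In epithelia the system is known for setting cell adhesion, repulsion and tissue boundaries.

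Counts assigned to genes ran from 12391161 to 13369692 per siBRG1 library and from 40228678 to 49720320 per control library. SMARCA4 stood at 60.4, 78.8 and 50.5 CPM (the count scaled by the library's gene total, normalised by TMM) in siBRG1 and at 244, 266 and 262 CPM in control, lower in each siBRG1 library (log2 fold change −2.03 with SE 0.161, adjusted p = 2.67e-04). Nothing in the labels says that libraries came from separate cultures, so the p-values rest on a spread among libraries that may be technical. The epithelial keratin genes KRT8, KRT18 and KRT19 were abundant, while CDH1 and EPCAM reached at most 6.97 and 1.80 CPM. Of 6 stromal fibroblast markers 5 rose and 1 fell, and their summed level was 2285 to 2551 CPM in siBRG1 and 694 to 784 CPM in control. Most of the siBRG1 sum was COL3A1, at a mean of 1614 CPM against 293 CPM in control. THY1, the highest of the 6 in control, was the one that fell, from a mean of 323 to 287 CPM. Summed epithelial markers came to 3472 to 3729 and 3931 to 4016 CPM (3 of 6 rose, 2 fell). The 2 that fell were KRT7, from a mean of 196 to 36.9 CPM (log2 fold change −2.40), and KRT19, from 882 to 608 CPM (−0.54). The 3 that rose were EPCAM (log2 fold change 2.63), CDH1 (0.93) and KRT8 (0.089), and KRT18 overlapped between groups. Of all genes tested, 36.1% rose and 36.5% fell. Summed endothelial markers came to 15.2 to 21.4 and 17.4 to 20.1 CPM (1 of 6 rose, 1 fell). Most of that was KDR, at a mean of 14.6 CPM in siBRG1 and 15.9 CPM in control, with overlapping groups. CDH5 rose (log2 fold change 1.96) and VWF fell (−0.69). The endothelial markers PECAM1, TEK and CLDN5 had no more than 4 counts in any library. Summed immune markers came to 9.90 to 10.6 CPM in siBRG1 and 4.10 to 5.49 CPM in control (1 of 6 rose), most of it CD14, and CD3E was at 0 in every library. The part of the stromal, epithelial, endothelial and immune marker changes in the results below was not tested. In these bulk samples fewer cells of a type cannot be told apart from less RNA per cell.

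The family split in both directions. EPHA4 was the member that fell most, while EPHB3, EFNA1, EFNB1 and EPHB4 rose, and EFNB2, EFNA4, EPHB2 and EFNA5 fell. EPHA2, the most abundant member, did not pass the test. So 4 of 10 members rose and 5 fell at an adjusted p (edgeR quasi-likelihood, Benjamini-Hochberg over all genes tested) under 0.05. Across all 15830 genes tested 72.6% were called (36.1% higher and 36.5% lower), so a count of 9 called among 10 sets the members little apart from other genes. The 2 changed at least 2-fold were EPHB3, which rose, and EPHA4, which fell, and 21.6% of all genes tested did as much (10.4% higher and 11.1% lower). CPM of the groups did not overlap for 9 members, and for 74.3% of all genes tested. All 10 passed the filter on low counts. The median size of the log2 fold change, whatever its sign, was 0.55 over the members and 0.48 over all genes tested. With sign, the medians were −0.18 and −0.0050.

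**Figure D1:**
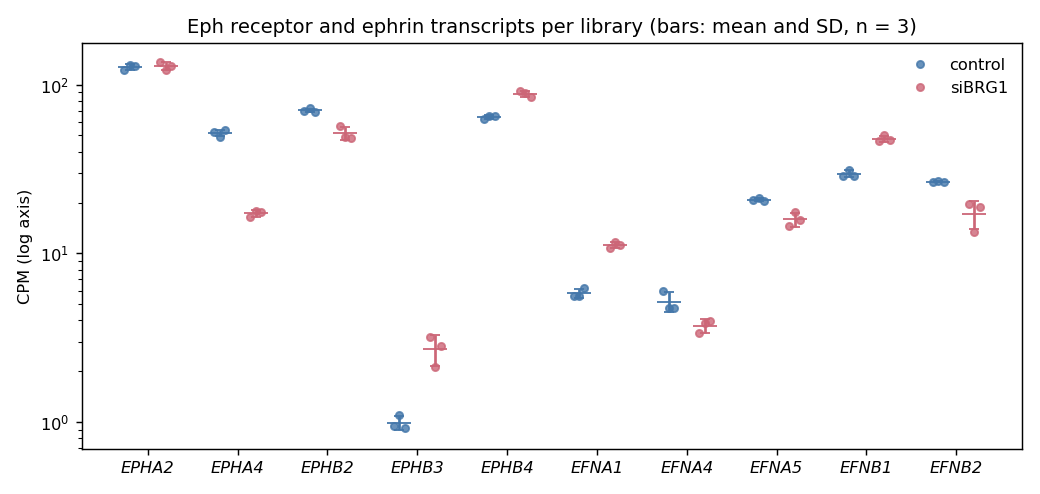
CPM of the 10 members in each library (log axis). Points are libraries, and horizontal marks with bars are the mean and SD of 3 libraries per group. EPHA4 shows the widest gap downward, from 51.7 to 17.3 CPM, and EPHA2 libraries of both groups overlap.

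EPHA4 (ENSG00000116106.11, chromosome 2, 221418027 to 221574202 on GRCh38) encodes the receptor that takes ligands of both classes. It stood at 16.4, 17.9 and 17.6 CPM in the siBRG1 libraries and at 52.5, 49.0 and 53.5 CPM in the control libraries. No siBRG1 library came near a control library, and the 3 siBRG1 values lay within a narrow band. The fall was 2.99-fold (log2 fold change −1.58 with SE 0.0707, adjusted p = 1.05e-17), and over 14 alternative settings the log2 fold change stayed between −1.63 and −1.46. The authors' deposited table gives −1.61 for the same comparison.

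EPHA2 (ENSG00000142627.12, chromosome 1, 16124337 to 16156087), an ephrin-A receptor known from epithelial cells, stood at 136, 123 and 129 CPM in siBRG1 and at 122, 131 and 128 CPM in control. The groups overlapped throughout. Its log2 fold change of 0.032 (SE 0.0457, adjusted p = 0.543) had a 95% interval of −0.062 to 0.13. The value moved with the processing: when each library's trends with gene GC content and exon length were taken out, the log2 fold change was −0.26 (adjusted p = 6.17e-06), and the adjusted p over all 14 alternatives ran from 6.17e-06 to 0.956. In the authors' deposited table EPHA2 has an adjusted p of 0.921.

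Among the B-class receptors, EPHB4 rose and EPHB2 fell by a like amount. EPHB4 (ENSG00000196411.9, chromosome 7, 100802565 to 100827521), a receptor of ephrin-B2, stood at 91.3, 88.7 and 84.0 CPM in siBRG1 and at 62.4, 64.9 and 65.4 CPM in control (log2 fold change 0.45 with SE 0.0494, adjusted p = 2.98e-09). All siBRG1 libraries lay above all control libraries. With GC and length trends removed its rise was smaller, at 0.20 (adjusted p = 2.94e-04, range over 14 alternatives 2.25e-14 to 2.94e-04). EPHB2 (ENSG00000133216.16, chromosome 1, 22710839 to 22921500), a receptor best known from axon guidance and intestinal crypts, stood at 56.8, 49.0 and 48.4 CPM and at 70.1, 72.2 and 69.2 CPM (log2 fold change −0.45 with SE 0.0577, adjusted p = 5.88e-08). Its siBRG1 libraries were all lower, and the first of them lay closest to control.

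EPHB3 (ENSG00000182580.2, chromosome 3, 184561784 to 184582409), a B-class receptor that acts beside EPHB2 in the intestine, was scarce in both groups. Its 44, 27 and 36 counts in the siBRG1 libraries were 3.20, 2.11 and 2.82 CPM, and its 46, 43 and 37 counts in the control libraries were 0.946, 1.09 and 0.919 CPM. Raw counts of the groups overlapped, and after scaling for the deeper control libraries all siBRG1 libraries were higher. The rise was 2.75-fold (log2 fold change 1.46 with SE 0.266, adjusted p = 1.83e-05), with a 95% interval of 0.92 to 2.01 on the log2 scale, the widest of the 10 members.

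Ephrin-A genes moved in different directions. EFNA1 (ENSG00000169242.11, chromosome 1, 155127460 to 155134857), a ligand of EPHA2, stood at 10.7, 11.7 and 11.2 CPM in siBRG1 and at 5.62, 5.55 and 6.19 CPM in control, a rise in every library (log2 fold change 0.95 with SE 0.120, adjusted p = 4.70e-08). EFNA4 (ENSG00000243364.7, chromosome 1, 155063731 to 155069553), another ephrin-A, stood at 3.35, 3.84 and 4.0 CPM and at 6.01, 4.76 and 4.77 CPM (log2 fold change −0.48 with SE 0.17, adjusted p = 0.0126). The first control library was the highest, and without it the call was lost (adjusted p = 0.0778 at a log2 fold change of −0.37). It was lost too without the first siBRG1 library (adjusted p = 0.0608 at −0.41). Its adjusted p over 14 alternatives ran from 0.00656 to 0.0778. EFNA5 (ENSG00000184349.12, chromosome 5, 107376889 to 107670895), a ligand that EPHA4 and other A-class receptors bind, stood at 14.5, 17.5 and 15.7 CPM in siBRG1, below each control library at 20.6, 21.3 and 20.5 CPM (log2 fold change −0.39 with SE 0.0865, adjusted p = 2.22e-04).

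EFNA4, EFNA3 and EFNA1 lie side by side on the plus strand of chromosome 1, with 9318 bases from EFNA4 to EFNA3 and 39921 from EFNA3 to EFNA1. The outer genes of this run, which span 71127 bases in all, went opposite ways: per kilobase of exon, the ratio of EFNA1 to EFNA4 was 1.59, 1.51 and 1.39 in the siBRG1 libraries and 0.465, 0.580 and 0.645 in the control libraries. EFNA3, the middle gene, was among the scarcer genes, at 2.04, 1.72 and 1.33 CPM in siBRG1 and 0.967, 1.27 and 0.745 CPM in control (log2 fold change 0.78 with SE 0.308, adjusted p = 0.0261). A readthrough gene model, AL691442.1, shares 853 exon bases with EFNA3 and 189 with EFNA4 on their strand and held 0 counts in all libraries. Reads in such shared stretches belong to more than 1 model, so the counts of EFNA3 and EFNA4 are uncertain to that extent.

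Of the ephrin-B members, EFNB1 rose and EFNB2 fell. EFNB1 (ENSG00000090776.5, chromosome X, 68828997 to 68842147), a ligand of EPHB2 and EPHB3, stood at 46.1, 50.1 and 47.1 CPM in siBRG1 and at 28.9, 31.4 and 28.7 CPM in control (log2 fold change 0.69 with SE 0.0632, adjusted p = 9.76e-11). The groups lay well apart, and with GC and length trends removed the log2 fold change was 0.42 (adjusted p = 6.59e-07, range over 14 alternatives 1.06e-21 to 6.59e-07). EFNB2 (ENSG00000125266.7, chromosome 13, 106489731 to 106535662), the ligand of EPHB4, stood at 19.5, 13.4 and 18.7 CPM and at 26.5, 26.9 and 26.4 CPM (log2 fold change −0.62 with SE 0.0931, adjusted p = 8.84e-07). Control values were nearly equal, while the second siBRG1 library was lower than the other two. Without that library the log2 fold change was −0.47 (adjusted p = 3.57e-06, range over 14 alternatives 1.87e-14 to 2.46e-05). An antisense gene, AL138689.2, covers 1313 exon bases of EFNB2 on the opposite strand. EPHA4 shares 353 exon bases with AC079834.2 and EPHB4 69 with SLC12A9, and reads were counted here by strand.

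**Figure D2:**
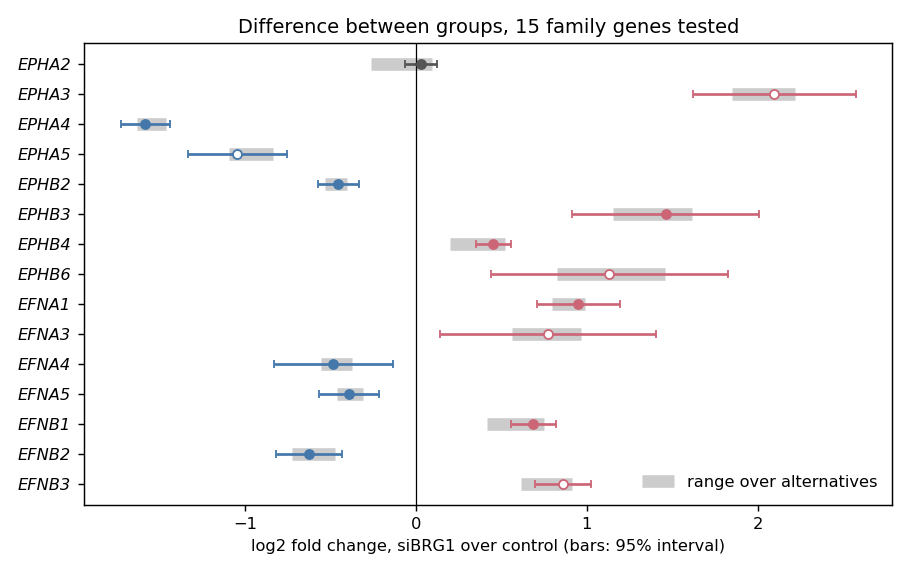
Log2 fold change (siBRG1 over control) of the 15 family genes tested, with 95% intervals from the edgeR fit. Filled points are the 10 members and open points other family genes, red for genes that rose, blue for genes that fell and grey for EPHA2, which did not pass. Grey bands span the values under the alternative settings. Only the EPHA2 band crosses 0.

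The stretch upstream of the start is shown for EPHA4, the largest fall, for the ligand and receptor EFNB2 and EPHB4, which went opposite ways, and for EPHA2. Each is the 250 bases before the RefSeq start on GRCh38.p14, written 5′ to 3′ in the gene's own direction. Capitals mark the SP/KLF letters GGGCGG, the TEAD letters GGAATG or the reverse complement of either. The AP-1 letters TGANTCA were searched too. No occurrence of one motif overlapped another in these 4 windows.
EPHA4, chr2:221574203-221574452 (minus strand): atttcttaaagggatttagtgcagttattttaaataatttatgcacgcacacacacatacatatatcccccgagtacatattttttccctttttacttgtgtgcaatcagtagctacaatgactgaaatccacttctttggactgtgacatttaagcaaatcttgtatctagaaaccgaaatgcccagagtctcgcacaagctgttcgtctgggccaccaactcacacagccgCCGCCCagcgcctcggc
EPHB4, chr7:100827524-100827773 (minus strand): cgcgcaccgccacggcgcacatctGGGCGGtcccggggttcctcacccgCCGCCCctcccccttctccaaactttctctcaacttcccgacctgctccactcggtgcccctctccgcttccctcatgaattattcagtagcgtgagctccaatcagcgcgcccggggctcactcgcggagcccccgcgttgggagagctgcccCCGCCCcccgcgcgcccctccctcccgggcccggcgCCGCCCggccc
EFNB2, chr13:106535663-106535912 (minus strand): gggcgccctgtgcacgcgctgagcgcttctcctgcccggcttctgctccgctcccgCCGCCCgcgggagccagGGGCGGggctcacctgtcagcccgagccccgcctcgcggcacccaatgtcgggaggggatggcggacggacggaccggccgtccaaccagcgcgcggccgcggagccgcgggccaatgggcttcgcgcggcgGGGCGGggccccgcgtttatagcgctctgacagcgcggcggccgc
EPHA2, chr1:16156070-16156319 (minus strand): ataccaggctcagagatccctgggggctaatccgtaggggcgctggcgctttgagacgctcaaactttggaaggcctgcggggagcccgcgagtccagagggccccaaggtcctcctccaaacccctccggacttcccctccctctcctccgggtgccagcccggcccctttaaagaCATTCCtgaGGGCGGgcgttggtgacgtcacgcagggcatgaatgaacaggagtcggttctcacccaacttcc

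These windows differ in base composition. G and C made up 43.2% of the EPHA4 window, against 72.8% for EPHB4, 78.4% for EFNB2, 63.2% for EPHA2 and a median of 58.0% over all 35116 windows. A second RefSeq start of EPHA4 lies further into the gene, and the 250 bases before it held 78.0% G and C. SP/KLF letters stood in a window of all 10 members and of 19 of the 20 family genes with a window, and in 42.6% of all windows. TEAD letters stood in the EPHA2 window alone among the members, against 11.9% of all windows, and AP-1 letters in no member's window, against 6.57%. A match is only a match of letters, and a window without one says nothing about binding elsewhere.

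Levels of different genes were compared per kilobase of merged exon (RPKM). EPHA2 led in both groups, at 31.1 ± 1.66 RPKM in siBRG1 and 30.5 ± 1.14 RPKM in control (SD, n = 3). In control EPHB4 followed at 9.98 ± 0.247 RPKM, then EFNB1, EPHA4, EFNB3 and EPHB2, of which EFNB3 and EPHB2 overlapped. EPHA4 had rank 4 in control, at 6.84 ± 0.311 RPKM, and rank 10 in siBRG1, at 2.29 ± 0.105 RPKM, below all 5 member ephrins. In siBRG1 EFNB1 and EPHB4 followed EPHA2 and overlapped each other (14.4 ± 0.636 and 13.7 ± 0.574 RPKM). Neighbours from EFNA1 through EPHB2, EFNB2 and EFNA4 to EFNA5 overlapped in that group, so their order there is not resolved. EPHB3 was the lowest member in both groups, at 0.598 ± 0.122 and 0.218 ± 0.0209 RPKM.

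Summed over all 14 receptor genes, RPKM came to 53.3 ± 2.06 in siBRG1 and 54.4 ± 1.30 in control, a difference smaller than the spread. EPHA2 held 58.4 ± 1.06% of the receptor sum in siBRG1 and 56.1 ± 0.813% in control. EPHB4 held 25.7 ± 0.993% and 18.4 ± 0.117%, and EPHA4 4.30 ± 0.358% and 12.6 ± 0.739%. Summed over all 8 ephrin genes, RPKM came to 39.8 ± 1.72 in siBRG1 and 30.7 ± 1.01 in control, higher in each siBRG1 library. EFNB1 held 36.2 ± 0.137% and 29.1 ± 1.5% of the ephrin sum, EFNB2 8.67 ± 1.99% and 17.3 ± 0.525%, and EFNA1 11.1 ± 0.106% and 7.43 ± 0.690%. EFNB3, which is not among the members, held 26.4 ± 1.42% in siBRG1 and 18.8 ± 0.995% in control. Ephrin-A genes together held 28.7 ± 0.658% in siBRG1 and 34.8 ± 0.935% in control. These sums take in members and other family genes and are given without a test, and they depend on the length chosen for each gene. They were not recomputed with GC and length trends removed. In that setting the log2 fold change was −0.26 for EPHA2 and 0.20 for EPHB4, the largest holders of the receptor sum. For EFNB1, the largest holder of the ephrin sum, it was 0.42. So whether the receptor sums stay alike under that correction was not tested.

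**Figure D3:**
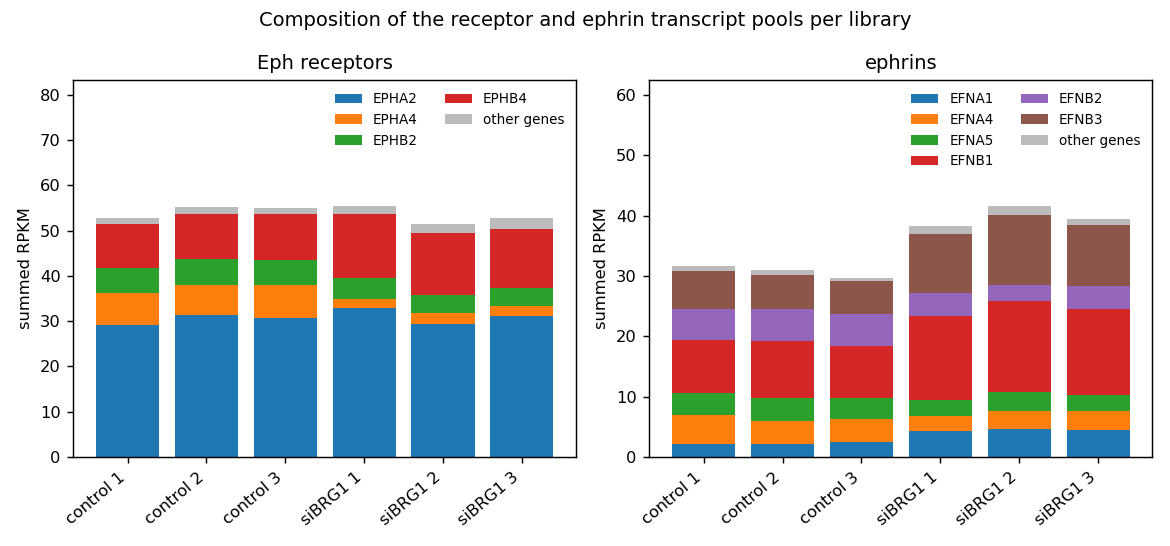
Summed RPKM of the Eph receptor genes (left) and ephrin genes (right) in each library, stacked by gene and starting at 0. GC and length trends were not removed. As drawn, receptor sums are alike in both groups with a thinner EPHA4 layer and a thicker EPHB4 layer in siBRG1. Ephrin sums are higher in siBRG1, mainly through EFNB1 and EFNB3.

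Ratios of 2 genes within a library do not depend on how libraries are scaled. The ratio of EFNB2 to EPHB4, RPKM over RPKM, was 0.274, 0.194 and 0.286 in the siBRG1 libraries and 0.544, 0.532 and 0.517 in the control libraries. By the means it was 2.11-fold lower in siBRG1. With GC and length trends removed the log2 fold changes behind it were −0.59 for EFNB2 and 0.20 for EPHB4, still of opposite sign. The ratio of EFNB1 to EPHB2 went the other way, at 3.06, 3.86 and 3.67 in siBRG1 and 1.56, 1.64 and 1.57 in control. EFNA1 to EPHA2 stood at 0.128, 0.156 and 0.142 and 0.0757, 0.0696 and 0.0791, and EFNA5 to EPHA4 at 1.17, 1.30 and 1.18 and 0.520, 0.575 and 0.508. So the ephrin gained on the receptor it was set against in the latter 3 pairs and lost in the EFNB2 and EPHB4 pair. Groups did not overlap in any of the 4. EFNA5 itself fell (log2 fold change −0.39), and its ratio rose because EPHA4 fell more (−1.58). Ephrin over receptor ratios were formed for these 4 pairs only, and each ephrin can bind other receptors. The direction depends on the pair: EFNB1 rose less than EPHB3, another of its receptors (log2 fold changes 0.69 and 1.46). Between the B-class receptors, EPHB4 to EPHB2 was 3.12, 3.52 and 3.37 in siBRG1 and 1.73, 1.75 and 1.84 in control. These ratios restate member values already given and were not tested.

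**Figure D4:**
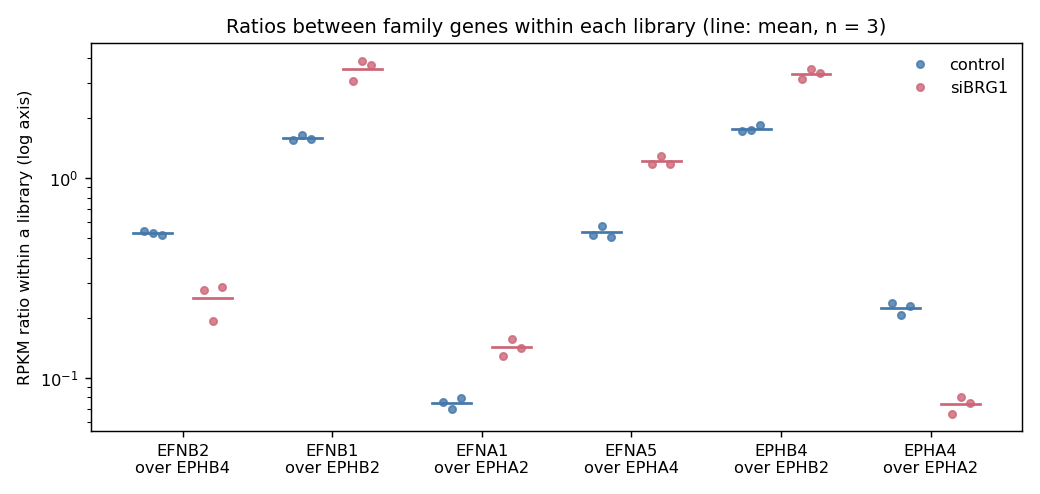
RPKM ratios between family genes within each library (log axis). Points are libraries and lines are means of 3 libraries per group. EFNB2 over EPHB4 and EPHA4 over EPHA2 are lower in every siBRG1 library, and the other 4 ratios are higher in every siBRG1 library.

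Outside the 10 members, 5 family genes were expressed highly enough to be tested and 4 of them rose. EFNB3, a ligand of B-class receptors and of EPHA4, was the most abundant, at 31.6, 37.7 and 32.5 CPM in siBRG1 and 20.3, 18.1 and 17.4 CPM in control (log2 fold change 0.86 with SE 0.0806, adjusted p = 1.45e-10). Per kilobase it exceeded EFNB2 in both groups (10.5 ± 1.02 against 3.43 ± 0.663 RPKM in siBRG1, and 5.78 ± 0.467 against 5.30 ± 0.0558 RPKM in control), although these last ranges lay close. EPHA3, an ephrin-A receptor, had the largest rise of the family, from 1.11, 1.27 and 0.969 CPM in control to 4.0, 4.07 and 6.35 CPM in siBRG1 (log2 fold change 2.10 with SE 0.232, adjusted p = 4.08e-09). EPHA5, another ephrin-A receptor, was the one that fell, from 8.27, 8.43 and 8.22 to 3.64, 4.31 and 4.15 CPM (log2 fold change −1.04 with SE 0.141, adjusted p = 1.62e-07). EPHB6, a receptor without kinase activity, rose from 0.679, 0.815 and 0.820 to 0.873, 2.35 and 1.88 CPM (log2 fold change 1.13 with SE 0.338, adjusted p = 0.00391). Without the second siBRG1 library EPHB6 did not pass (adjusted p = 0.0521, range over its 13 alternatives 3.58e-04 to 0.0521). The EFNA3 call was lost without siBRG1 library 1, control library 1 or control library 3, in DESeq2 and after the GC and length correction (adjusted p = 0.0676 to 0.123), with log2 fold changes of 0.56 to 0.75. The authors' deposited table has EFNA3 at 0.75 with an adjusted p of 0.0405.

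EPHA1, EPHA6, EPHA7, EPHA8, EPHA10, EPHB1 and EFNA2 did not pass the filter and were not tested. None had more than 11 counts in any library, and EPHA8 had 0 in all 6. A count of 0 allows up to 3 counts, a mean of 0.229 CPM for siBRG1 libraries and 0.0709 CPM for control libraries, for counting error only. Over the whole family, 8 of 15 genes tested rose and 6 fell, beside 36.1% and 36.5% of all genes tested.

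Genes that act with Ephs and ephrins were described from a list of 62, of which 56 were tested. There 17 rose and 27 fell, where 36.1% of all genes tested were called higher and 36.5% lower, and the median log2 fold change was −0.11 against −0.0050 over all genes tested. With unstranded counts the split was 21 and 22. Kinases and adaptors that bind activated receptors held 7 of 20 that rose and 11 that fell. The largest fall among them was in PIK3R1, a regulatory subunit of PI 3-kinase (log2 fold change −1.14 with SE 0.0821, adjusted p = 5.26e-13). Of the 4 Src-family kinases listed, singled out after their values were seen, LYN, YES1 and FYN fell (log2 fold changes −1.0, −0.69 and −0.44) and SRC rose (0.24).

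ARHGEF16, an exchange factor known to bind EPHA2, rose (log2 fold change 1.45 with SE 0.180, adjusted p = 3.66e-08). Of 5 phosphatases tested, PTPN1, PTPN11, PTPRJ and INPPL1 fell, and ACP1 did not pass (log2 fold change 0.090), and 36.5% of all genes tested were called lower. MMP14, a membrane-anchored metalloproteinase known to cut EPHA2, stood at 199, 199 and 197 CPM in siBRG1 and 84.5, 86.9 and 81.2 CPM in control (log2 fold change 1.24 with SE 0.0418, adjusted p = 1.43e-20).

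Partners of ephrin-B in reverse signalling, among them PDZ proteins, held 4 of 10 that rose and 3 that fell, shares close to the 36.1% and 36.5% of all genes tested. DVL2, a Dishevelled adaptor, rose by 0.93 on the log2 scale. PARD6B, a polarity protein that can bind ephrin-B1, fell most of the whole list (log2 fold change −1.75 with SE 0.0988, adjusted p = 2.08e-15), followed by the junction scaffold gene TJP1 (log2 fold change −1.58, SE 0.0423).

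**Figure D5:**
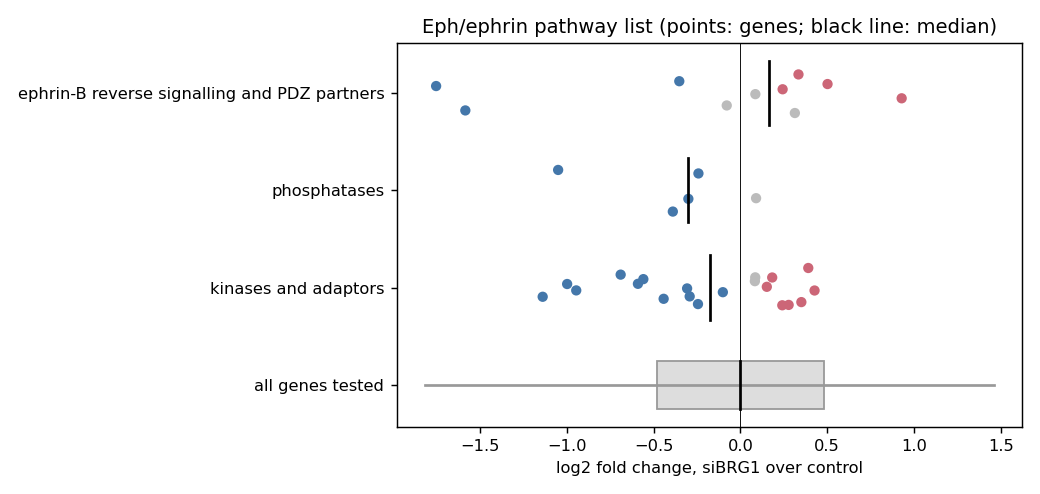
Log2 fold changes (siBRG1 over control) of 3 groups of the pathway list by role. Points are genes tested (red rose, blue fell, grey did not pass), black lines are medians, and for all genes tested the box spans the quartiles and the line the 5th to 95th percentile. Kinases and phosphatases have medians below 0, and ephrin-B partners a median above 0.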

How the data were processed

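RNA of 6 libraries was measured by directional mRNA sequencing. For each, the authors deposited raw counts per gene, in STAR's layout per the file's entries. Cutadapt, Trim Galore, FastQC, STAR, DESeq2 and GRCh38.p12 stand in the submitters' processing notes, with the annotation release not given in the sources. The authors also deposited a table of log2 fold changes and p-values, quoted where named. GENCODE 29 matched 58216 of 58336 identifiers.

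Sense-strand counts were used. Entries naming no gene (29.2 ± 1.33% of reads in siBRG1, 28.9 ± 0.516% in control, SD, n = 3) were left out. Among them, reads in no feature made up 3.97 ± 0.194% in siBRG1 and 13.3 ± 0.415% in control, and multimapped reads 20.3 ± 1.62% and 9.81 ± 0.224%. Within groups, counts varied beyond sampling noise. The test was edgeR 4.0.16 (TMM, filterByExpr, robust quasi-likelihood, two-sided, Benjamini-Hochberg), with SE as the absolute log2 fold change over the square root of F. It was also run on simulated counts with 200 changed genes. That setting is unlike these data, where 72.6% of genes were called, so the run does not show how the test behaves here. RPKM is CPM per kilobase of merged exons. Alternatives were DESeq2 1.42.0, its size factors, 2 other count filters, unstranded counts, protein-coding genes alone, GC and length offsets, a replicate block and leaving out each library. Members, lists and alternatives were chosen with earlier results of these data known. All family genes are named, and of the pathway list the 3 largest rises and falls that passed with 50 or more counts on average, and groups of 5 or fewer. Other groups of that list are not reported here.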

Additional observations from a re-analysis of the deposited data

How the results depend on the processing

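Of the values of the 15 family genes under alternative settings, 194 kept their direction and their side of the threshold and 13 did not. EPHA2 turned below 0 with no count filter (−0.013), with protein-coding genes fitted alone (−0.0098) and with GC and length trends removed (−0.26), and leaving out 1 library at a time gave −0.015 to 0.072. Genes called and changed at least 2-fold numbered 3412, but 2050 with at least 50 counts in 3 libraries and 2064 with protein-coding genes alone, both of which test fewer genes, and rose to 4745 with no count filter and 4064 with unstranded counts, which test more. The 50-count filter left 5 in place of 8 family genes called higher, since EPHB3, EPHB6 and EFNA3 were not tested in it. Without 1 library that 2-fold number ran from 2813 to 3968, and members called lower from 4 to 5. The median over all genes moved by less than 0.1 on the log2 scale in every setting. Deviations of libraries with the same replicate number correlated at −0.0110 to 0.0204, and those with different numbers across groups at −0.0254 to 0.0161. These values show no pairing by number, and a shared preparation was not tested. A fit with the replicate block called 11194 genes in place of 11498 and left 4 members higher and 5 lower. With the longest coding transcript as gene length, chosen after seeing the data, EPHA2 held 51.9% (siBRG1) and 50.6% (control) of the receptor sum, EPHB4 32.3% and 23.5%, and EFNB1 34.8% of the ephrin sum in siBRG1. A matched-depth fit was not run, and precision is lowest for the scarcest genes, with SE of 0.338 for EPHB6, 0.308 for EFNA3 and 0.266 for EPHB3.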

Other observations

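EPHA1, the gene of an A-class receptor, had 0 to 3 counts per library on its own strand but 114 to 147 on the opposite strand in siBRG1 and 737 to 832 in control. These are raw counts, not scaled for the deeper control libraries, so the groups cannot be compared by them directly. ZYX, a protein-coding gene on that opposite strand, shares 82 exon bases with EPHA1. The unstranded column gave EPHA1 0 or 1 counts per library. At the loci of the 10 members the opposite strand held at most 2.67% of stranded counts, for EFNA4 in siBRG1.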
